A study of Rattus norvegicus with 10 samples.

Results

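Adssl1 and Mtfp1 are 2 mRNAs of energy metabolism whose signal was followed in the aorta of endotoxaemic rats. Each was read by the feature that the authors list for it, and whether other features read the same genes could not be checked. These 2 stand among the 28287 mRNA features of the array. Both passed the filter on dim signals, as 26240 of these features did. Both were taken from the authors' list of the most changed mRNAs on these same arrays, which gives a fold change and a P for each, and both were chosen as down-regulated in the lipopolysaccharide (LPS) group. The lower signal of each member after LPS was therefore used to pick it and is given here as a description, with no test. The spread of a member among the rats of a group enters such a P, so it too was part of the choice, but how the members varied together was not.

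The rats were 8-week-old male Wistar rats, an outbred laboratory strain. The LPS group (rats 1, 3, 5, 6 and 7) received an intraperitoneal injection of LPS, the cell-wall endotoxin of Gram-negative bacteria, at 10 mg/kg, and the control group (rats 15, 16, 17, 18 and 20) received saline. The aorta was taken 24 h after injection, and its total RNA was hybridised to 10 single-colour Agilent arrays, 1 labelled for each rat. A single injection of endotoxin is a model of septic shock without a living infection. The cell types of the aorta were not separated, so the values are averages over every cell type in the sample. The paper does not say whether the fat around the vessel was removed.

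Adssl1 encodes the muscle form of adenylosuccinate synthetase. This enzyme joins aspartate to IMP on the way back to AMP, a step of the purine nucleotide cycle, by which working muscle keeps its adenine nucleotides in balance. Mtfp1 encodes mitochondrial fission process 1, a protein of the inner mitochondrial membrane that takes part in the division of mitochondria and in the coupling of the respiratory chain. Adssl1 is known mainly from skeletal and heart muscle, and the part of Mtfp1 in heart muscle has been studied as well.

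The current symbol of Adssl1 was taken to be Adss1, a match that rests on background knowledge and the shared chromosome, since the RefSeq table used does not list the old name. RefSeq places Adss1 on rat chromosome 6 with 2 listed transcript starts and Mtfp1 on chromosome 14 with 1, the chromosomes that the list of features also gives for the transcripts ENSRNOT00000073796 (Adssl1) and ENSRNOT00000006160 (Mtfp1). Because both members were lower in the LPS group, the 250 bases before each start are shown, with every E-box (CANNTG, searched on both strands, where it reads the same) in capitals. They were read from RefSeq on the build GRCr8 at chr6:137500299-137500548 and chr6:137500684-137500933 on the plus strand for Adss1, and at chr14:83195854-83196103 on the minus strand for Mtfp1.

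Adss1, first start: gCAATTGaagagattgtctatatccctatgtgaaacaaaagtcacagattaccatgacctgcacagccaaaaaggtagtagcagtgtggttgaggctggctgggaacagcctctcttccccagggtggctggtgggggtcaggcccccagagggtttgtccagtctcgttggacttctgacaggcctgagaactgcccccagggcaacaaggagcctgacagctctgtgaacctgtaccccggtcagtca

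Adss1, second start: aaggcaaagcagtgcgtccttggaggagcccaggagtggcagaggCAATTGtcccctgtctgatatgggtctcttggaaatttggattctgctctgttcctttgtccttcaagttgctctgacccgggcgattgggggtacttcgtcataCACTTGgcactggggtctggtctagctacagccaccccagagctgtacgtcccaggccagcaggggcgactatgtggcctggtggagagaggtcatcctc

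Mtfp1: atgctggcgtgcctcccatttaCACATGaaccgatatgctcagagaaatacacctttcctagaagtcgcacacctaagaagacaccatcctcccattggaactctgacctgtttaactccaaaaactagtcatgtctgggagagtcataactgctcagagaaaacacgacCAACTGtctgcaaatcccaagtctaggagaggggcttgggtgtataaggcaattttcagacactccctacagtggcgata

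The search covered 300 bases, from 250 before to 50 after each start. The first Adss1 window held 1 E-box, CAATTG. The second held 2, CAATTG and CACTTG, and the Mtfp1 window held 2, CACATG and CAACTG. Of all 33469 rat windows of this length, 72.1% held at least 1 E-box, so its presence did not set the members apart. The motif TNAAGGTCA, known for oestrogen-related receptors, was in 1.2% of all windows and its letters were in none of these 3. A MEF2 site was in 0.565% and a CArG box in 1.64% of all windows, and neither was in these 3.

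Before the members are described, the arrays themselves need a word. The signal of an array at its 75th percentile ranged from 190.3 to 453.7, and between 79.6% and 92.6% of the features of an array were well above background. The arrays of LPS rats 1 and 3 differed by 0.984 times the variance that the spot errors alone give, and those of control rats 15 and 17 by 0.778 times, whereas the other 43 pairs differed by 4.01 to 13 times. Within each of these 2 pairs the arrays were no further apart than spot error allows, and they were averaged as 1 sample, which left 8 samples, 4 in each group. Whether the arrays of such a pair hold the RNA of 1 rat or of 2 cannot be told apart from these values, so the rat numbers of these arrays are given as labelled. The arrays came from 3 slides. Slide 1 held only control rats 15, 16, 17 and 18, slide 3 held only LPS rats 6 and 7, and slide 2 held control rat 20 with LPS rats 1, 3 and 5.

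Both members were clear signals on every array. Neither spot was saturated or marked as an outlier, and both were well above background on all 10 arrays. The lowest raw signal stood 16 times above its local background for Adssl1 and 36.1 times for Mtfp1. The software's error of a spot was 10% of its signal at the lowest for both members. The low values after LPS were therefore measured ones and not readings at the floor of the scanner.

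The background-corrected intensity of Adssl1 in the LPS group was 397.7 in rat 1, 248.6 in rat 3, 1951 in rat 5, 223.2 in rat 6 and 1057 in rat 7. In the control group it was 6732 in rat 15, 1504 in rat 16, 8013 in rat 17, 14707 in rat 18 and 28457 in rat 20. Thus 4 of the 5 LPS arrays lay below every control array, and only the array of LPS rat 5 exceeded that of control rat 16. These intensities were not yet scaled between arrays, so each was next expressed as log2 relative to the 75th percentile of its own array.

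On this scale Adssl1 was -0.19 in LPS rat 1, -0.35 in rat 3, 3.12 in rat 5, -0.40 in rat 6 and 1.52 in rat 7. The control values were 4.71 in rat 15, 2.98 in rat 16, 4.72 in rat 17, 6.22 in rat 18 and 6.16 in rat 20. The groups overlapped at one place because LPS rat 5 stood above control rat 16, so that the lowest control value minus the highest LPS value was -0.14. Of the 4 LPS samples, 3 lay below the lowest control sample, and of the 4 control samples, 3 lay above the highest LPS sample.

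Adssl1 was 16.3-fold lower in the LPS group by geometric mean on these arrays. The authors also measured the listed mRNAs by quantitative PCR. They do not name Adssl1 among those whose result matched the arrays. The LPS samples averaged 0.99 ± 1.67 (SD, n = 4) on the log2 scale. The control samples averaged 5.02 ± 1.52 (SD, n = 4), so LPS minus control was -4.03 with a standard error of 1.13. Only 3 of the 26234 mRNAs with values in all samples had a more negative difference, since Adssl1 ranked 4, and 61 of these mRNAs lay below -2. This rank is not independent of how Adssl1 was picked. The median difference over all of them was 0.07, so the scale itself was nearly level between the groups.

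The rats of a group differed widely in Adssl1. The LPS samples spanned 3.53 on the log2 scale, an 11.5-fold range, and the control samples spanned 3.23, a 9.41-fold range. The SD of Adssl1 exceeded that of 99.5% of mRNAs in the LPS group, where the median mRNA had an SD of 0.36. In the control group it exceeded that of 97.9%, against a median SD of 0.42. Few other mRNAs varied as much among the rats of a group.

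The intensity of Mtfp1 in the LPS group was 801.2 in rat 1, 459.9 in rat 3, 1046 in rat 5, 587.0 in rat 6 and 1436 in rat 7. In the control group it was 3801 in rat 15, 1229 in rat 16, 4378 in rat 17, 7383 in rat 18 and 6736 in rat 20. Before scaling, LPS rat 7 lay above control rat 16, the dimmest control array for both members. No other LPS array reached a control array.

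After scaling, Mtfp1 was 0.82 in LPS rat 1, 0.54 in rat 3, 2.22 in rat 5, 0.99 in rat 6 and 1.96 in rat 7. The control values were 3.89 in rat 15, 2.69 in rat 16, 3.85 in rat 17, 5.22 in rat 18 and 4.08 in rat 20. The groups no longer overlapped, and the lowest control sample lay 0.47 above the highest LPS sample. Of the 26234 mRNAs, 489 (1.86%) were lower in LPS with the groups apart in this way.

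Mtfp1 was 5.66-fold lower in the LPS group by geometric mean. Unlike Adssl1, the authors name it among the mRNAs whose quantitative PCR matched the arrays. Its LPS samples averaged 1.46 ± 0.74 (SD, n = 4) on the log2 scale. Its control samples averaged 3.96 ± 1.04 (SD, n = 4), and LPS minus control was -2.50 with a standard error of 0.64. Its difference ranked 28 of the 26234 mRNAs, a rank that likewise depends on how Mtfp1 was picked. The LPS samples spanned 1.54, a 2.92-fold range, and the control samples 2.53, a 5.78-fold range. Its SD exceeded that of 90.2% of mRNAs in the LPS group and 91.9% in the control group.

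**Figure D1:**
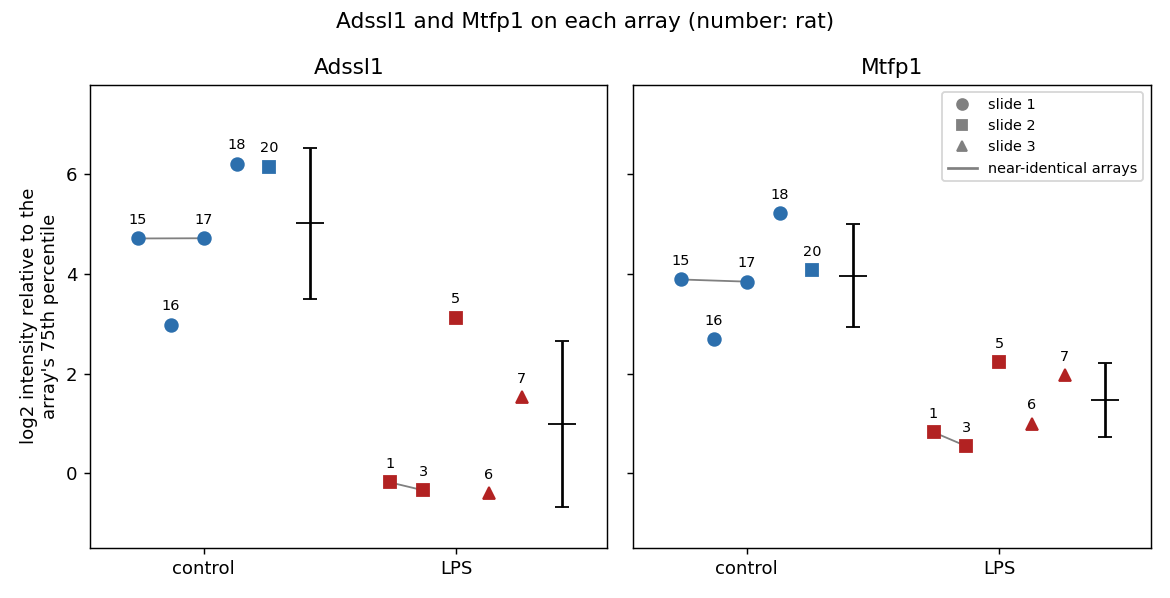
Log2 intensity of Adssl1 (left) and Mtfp1 (right) relative to the 75th percentile of each array. Each point is 1 array with its rat number, the shape gives the slide, grey lines join the near-identical arrays, and black bars give the mean and SD of the 4 samples of a group. LPS rat 5 lies above control rat 16 for Adssl1, whereas the groups lie apart for Mtfp1.

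In whole tissue, fewer cells that express a gene and less RNA in each of those cells cannot be told apart, and this holds for both members. Across all features, the groups were compared with limma, and a feature was called at a Benjamini-Hochberg adjusted p under 0.05 with a fold change above 1.5. Over the 8 samples, 20 of 33702 tested features (0.0593%) were called as lower in LPS, and 0 of the 2 members were among them. That number of features was 4 without LPS rat 7, 7 without LPS rat 6, 8 without LPS rat 5, 13 without control rat 20 and 1 without the near-identical pairs. With the 10 arrays taken as separate samples, 111 of 33702 (0.329%) were called as lower and 2 of the 2 members were among them. Averaging the near-identical arrays thus ended the calls of both members, though it moved the differences little, and nothing is read from either count because the members were chosen on this contrast.

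Other settings also moved the calls. With the slide as a fixed block, neither member was called, where 3 of 33702 features (0.0089%) were called as lower over 8 samples and 80 (0.237%) over 10 separate arrays. Mtfp1 was called with the slide as a random block, as were 45 of 33702 features (0.134%), and without control rat 16, as were 28 (0.0831%). Adssl1 was not called in either. The methods' t-test without adjustment called both members among 565 of 33696 features (1.68%). With Benjamini-Hochberg adjustment it called neither member, and 1 of 33696 features was called as lower. Nothing is read from these calls either.

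The slide and the group were largely confounded, so the values within the slide that holds both groups stand beside the pooled ones. On slide 2, the 2 LPS samples averaged 1.43 for Adssl1 against 6.16 in control rat 20, a difference of -4.73. For Mtfp1 they averaged 1.45 against 4.08, a difference of -2.62. Both differences were as large as those over all samples, although they rest on 1 control sample. The LPS samples of slide 3 averaged 0.56 for Adssl1 and 1.48 for Mtfp1, and the control samples of slide 1 averaged 4.64 and 3.93.

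The difference of both members kept its sign under every setting tried. For Adssl1 the difference lay between -5.29 and -3.71 under 9 other settings, of which the slide as a fixed block and slide 2 alone give the same estimate, and between -4.74 and -3.56 when each array was left out in turn. For Mtfp1 these ranges were -2.88 to -2.27 and -2.92 to -2.08. The values -5.29 and -2.88 came from 10 separate arrays with the slide as a fixed block, a setting chosen after seeing the data. The overlap of the Adssl1 groups was less stable. The groups lay apart by 1.46 without LPS rat 5, by 1.59 without control rat 16 and by 0.01 when arrays were scaled to the median feature instead of the 75th percentile.

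**Figure D2:**
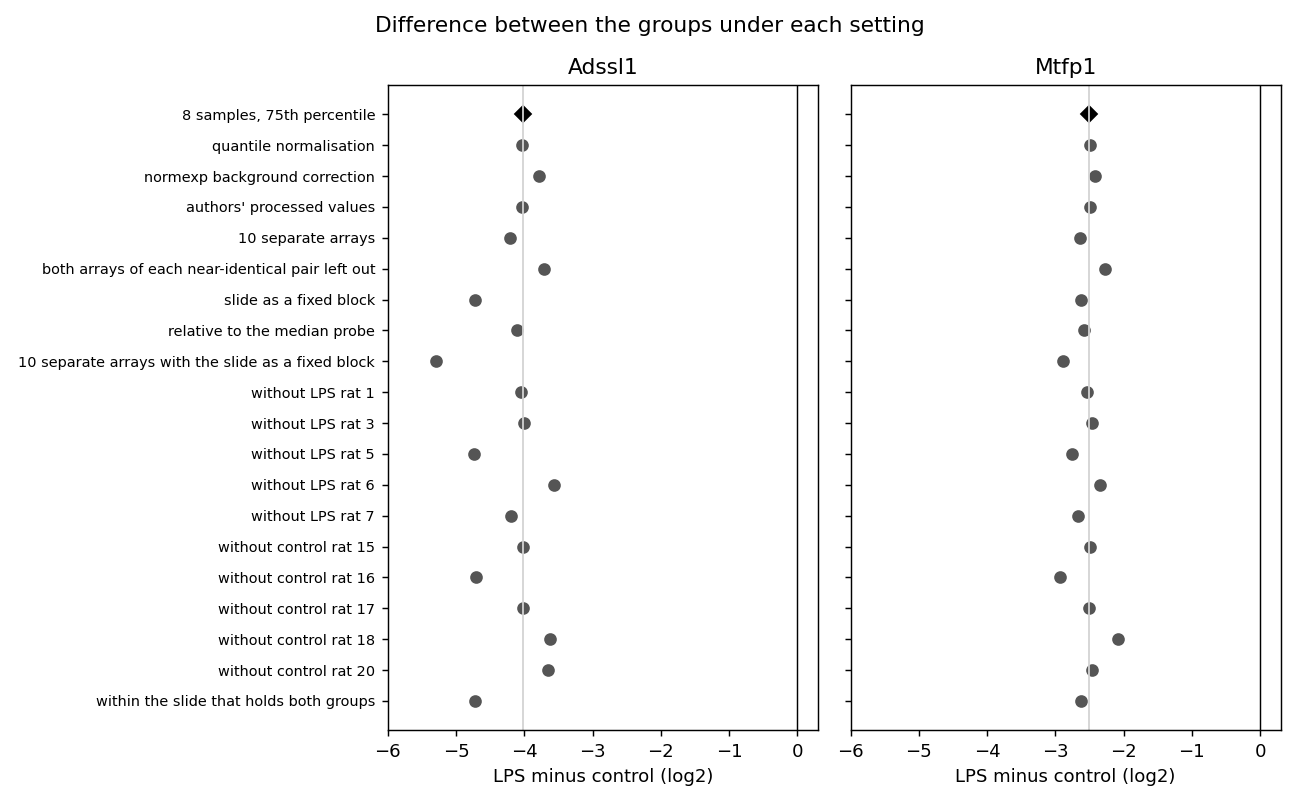
Difference between LPS and control in log2 units for Adssl1 (left) and Mtfp1 (right). The black diamond is the value over 8 samples (-4.03 and -2.50), each grey point is 1 other setting or 1 rat left out, and the vertical grey line repeats the diamond. All points lie below 0.

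The authors' own processed log2 values gave the same order of rats at the point of overlap. In that table Adssl1 was 7.99, 7.83, 11.21, 7.76 and 9.52 in LPS rats 1, 3, 5, 6 and 7, and 13.10, 11.05, 13.03, 14.15 and 14.26 in control rats 15, 16, 17, 18 and 20. Mtfp1 was 9.09, 8.83, 10.33, 9.15 and 9.90 in the same LPS rats, and 12.26, 10.76, 12.14, 13.16 and 12.18 in the same control rats. LPS rat 5 again stood just above control rat 16 for Adssl1 and below it for Mtfp1.

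Next, the members were compared with each other within the groups, a measure that did not enter their choice. The group mean was subtracted from each sample, which takes the contrast of the groups out of the values. For Adssl1 the deviations were -1.26 in LPS rats 1 and 3 (averaged), 2.13 in LPS rat 5, -1.40 in LPS rat 6 and 0.53 in LPS rat 7. In the control samples they were -0.30 in rats 15 and 17 (averaged), -2.04 in rat 16, 1.20 in rat 18 and 1.14 in rat 20. For Mtfp1 the deviations were -0.78, 0.76, -0.47 and 0.50 in the same LPS samples, and -0.10, -1.27, 1.26 and 0.11 in the same control samples.

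The deviations of Adssl1 and Mtfp1 had the same sign in each of the 8 samples. Control rat 16 was the lowest control sample for both, and LPS rat 5 was the highest LPS sample for both. Pearson's r was 0.90 (exact two-sided permutation test over 576 reorderings within groups, p = 0.00694, adjusted p = 0.0104). Spearman's rho was 0.93 (exact permutation p = 0.00694, adjusted p = 0.0104), and 3 coefficients were computed in this family. Without the 2 samples farthest from the median of Adssl1, control rat 16 and LPS rat 5, r was 0.80 over 6 samples with an exact permutation p of 0.111, so the relation was not past the threshold without them. In that smaller set of 36 reorderings the test could not give a p below 0.0278. Leaving out only LPS rat 5 gave r of 0.91 (exact permutation p = 0.0139), and leaving out only control rat 16 gave 0.84 (exact permutation p = 0.0486).

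**Figure D3:**
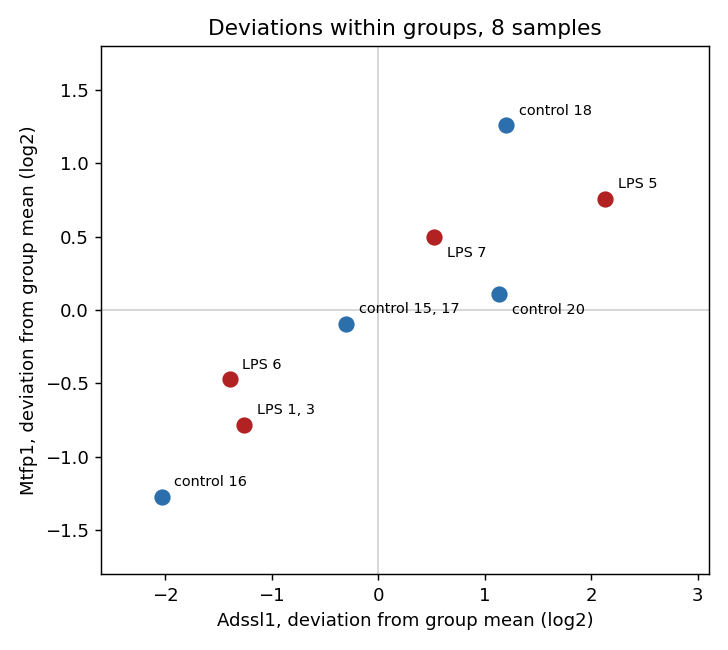
Deviation of each of the 8 samples from its group mean, in log2 units, for Adssl1 (horizontal) and Mtfp1 (vertical), with LPS samples in red and control samples in blue. Both deviations of a point have the same sign throughout, from control rat 16 at the low end to control rat 18 and LPS rat 5 at the high end.

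The slide bears on this relation too. With slide means subtracted as well, r was 0.97 over 24 reorderings, with an exact permutation p of 0.0833, when the smallest possible p was 0.0417. Other mRNAs were as close to the members or closer, though they were a small share of all. Of the 26232 other mRNAs, 80 (0.305%) had an r of at least 0.9 with Adssl1 and 392 (1.49%) had one with Mtfp1, against a median r of -0.02 and -0.01 over these mRNAs. An r of at most -0.9 was held by 109 (0.416%) with Adssl1 and by 110 (0.419%) with Mtfp1, so for Adssl1 more mRNAs lay past this limit on the opposite side. Mtfp1 ranked 83 in likeness to Adssl1, and Adssl1 ranked 398 in likeness to Mtfp1. The lists of mRNAs at or above this limit shared 35 features, which is 43.75% of the Adssl1 list and 8.93% of the Mtfp1 list. Most of the features most like either member have no gene name in the sources used here.

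Names were at hand for 38 other features, all of them from the authors' lists of changed transcripts. The likeness of these to the members is described by Pearson's r of the deviations over the same 8 samples, which share their arrays and their scaling, and no p is given. Cox8b, a subunit of cytochrome c oxidase in heart, muscle and brown fat, was the named transcript most like both members, with r of 0.90 for Adssl1 and 0.92 for Mtfp1. Relative to the 75th percentile, Cox8b was 2.23 in LPS rats 1 and 3, 4.42 in rat 5, 2.57 in rat 6 and 4.73 in rat 7. In the control samples it was 6.41 in rats 15 and 17, 4.50 in rat 16, 7.02 in rat 18 and 6.51 in rat 20. Like both members, Cox8b was lowest among the control samples in rat 16. Among the LPS samples it was highest in rat 7, whereas both members were highest in rat 5. The Cox8b groups overlapped because LPS rat 7 stood above control rat 16.

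Over 18 settings the r of Cox8b stayed between 0.83 and 0.97 for Adssl1 and between 0.87 and 0.98 for Mtfp1. Its first place did not hold throughout. It was first among the 38 in 14 of these settings for Adssl1 and in 6 of them for Mtfp1, and it never fell below place 6.

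The 8 other down-regulated mRNAs all had r above 0 with both members over the 8 samples, from 0.08 to 0.90 with Adssl1 and from 0.44 to 0.92 with Mtfp1. The lowest with Adssl1 was that of Ucp1, which was below 0 under some settings. Their medians were 0.47 and 0.65. Nr0b2, an orphan nuclear receptor that represses transcription, had r of 0.81 with Adssl1 and 0.65 with Mtfp1. Scd, the desaturase that makes monounsaturated fatty acids, had 0.49 and 0.77. The 10 down-regulated lncRNAs also all had positive r, with a median of 0.62 for Adssl1 and 0.85 for Mtfp1, and 5 of these 10 reached 0.9 with Mtfp1 whereas 0 did with Adssl1. The lncRNAs next in likeness to Adssl1 were ENSRNOT00000079309 (0.85) and XR_344417 (0.84). For Mtfp1 they were XR_344417 (0.92) and XR_597034 (0.92).

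The up-regulated transcripts were mixed. Of the 10 up-regulated mRNAs, 8 had r above 0 with Adssl1 and 5 with Mtfp1, with medians of 0.22 and -0.01, and the lowest was Orm1, an acute-phase plasma protein, with -0.40 and -0.42. Of the 10 up-regulated lncRNAs, 7 had r above 0 with Adssl1 and 5 with Mtfp1, with medians of 0.25 and 0.08. The highest was XR_594785, with 0.78 and 0.87. The lowest were XR_596552 and ENSRNOT00000089798, which ran opposite to both members. Their r was -0.79 and -0.81 with Adssl1 and -0.95 and -0.87 with Mtfp1. XR_596552 was 6.46, 5.86, 6.62 and 5.89 in the LPS samples (rats 1 and 3, 5, 6, 7), and 3.64, 4.53, 2.11 and 3.36 in the control samples (rats 15 and 17, 16, 18, 20). Among the control samples it was thus highest in rat 16, where both members were lowest.

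**Figure D4:**
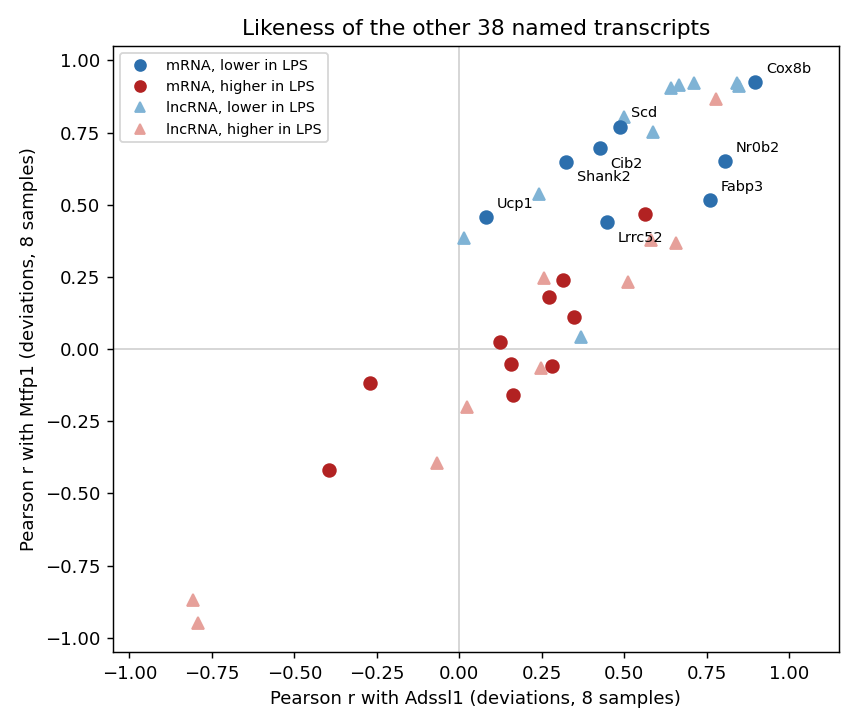
Pearson's r of the within-group deviations with Adssl1 (horizontal) and Mtfp1 (vertical) for the 38 other named transcripts, over 8 samples. Circles are mRNAs and triangles lncRNAs, in blue tones where lower and in red tones where higher in LPS; the 8 down-regulated mRNAs are named, and all of them lie above 0 on both axes, Ucp1 nearest to 0 on the horizontal one.

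Among the 10 down-regulated mRNAs of the list, the differences ran from -4.18 for Lrrc52 to -2.26 for Cib2, with the members at -4.03 and -2.50. Markers of other cell types that a vessel sample could hold were examined as far as they had a named feature. Of 8 marker lists, 5 (white adipocyte, skeletal muscle, smooth muscle, endothelium and macrophage) had none, so the label of the tissue and the presence of skeletal muscle could not be checked. Nor could the other genes of the purine nucleotide cycle or of mitochondrial division be named, and the members are given without them.

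The named markers of the cell types below all come from the authors' lists of changed transcripts, so their direction between the groups was fixed by how they were found and is no independent evidence. Among these markers the authors name Cox8b and S100a9 as matched by quantitative PCR, and not Ucp1, Fabp3 or S100a8. Of 7 markers of brown fat, a heat-producing fat that can surround the rat aorta, 2 were named, Ucp1 and Cox8b, and the other 5 have no named feature here. The summed level of these 2 on the log2 scale lay between 5.09 and 6.72 in the LPS samples and between 8.51 and 9.86 in the control samples. Ucp1, the uncoupling protein that makes this heat, was 4.88, 5.34, 6.04 and 6.30 in the LPS samples (rats 1 and 3, 5, 6, 7). It was 9.25, 8.64, 9.64 and 8.09 in the control samples (rats 15 and 17, 16, 18, 20). The Ucp1 groups lay apart, in the same direction as the members. Within the groups the r of Ucp1 was 0.08 with Adssl1 and 0.46 with Mtfp1, lower than that of Cox8b. These values depended on the setting, from -0.13 to 0.92 for Adssl1 and from 0.18 to 0.98 for Mtfp1. The highest of each came with slide means subtracted, which leaves few independent values. There Ucp1 exceeded Cox8b (0.93) in likeness to Mtfp1.

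Fabp3, a fatty acid binding protein of heart muscle that brown fat also makes, was the single named marker of 7 on the cardiac muscle list. It was 0.24, 4.31, 1.56 and 0.20 in the LPS samples and 4.89, 3.57, 5.41 and 7.68 in the control samples, in the same order of rats. Like Adssl1, it was highest in rat 5 among the LPS samples and lowest in rat 16 among the control samples, and its groups overlapped there. Its r was 0.76 with Adssl1 and 0.52 with Mtfp1. Over the 18 settings these ran from 0.57 to 0.88 and from 0.31 to 0.68, and the lowest with Mtfp1 came without control rat 16.

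Of 5 neutrophil markers, 2 were named, S100a8 and S100a9, and they were on the up-regulated list. Their summed level lay between 5.76 and 6.87 in the LPS samples and between 0.30 and 3.04 in the control samples. Within the groups their r with Adssl1 was 0.27 and 0.32, and with Mtfp1 it was 0.18 and 0.24. The part of brown fat, heart muscle and neutrophil RNA in the values of Adssl1 and Mtfp1 was not tested.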

How the data were processed

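The authors extracted RNA from the aorta of 5 LPS and 5 control rats, labelled it with Cy3 and hybridised single-colour Agilent arrays, 1 labelled for each rat. The deposited scanner files hold the intensity of each spot, which Agilent Feature Extraction 11.0.1.1 had corrected for background within the array. The authors also deposited a table of processed log2 values, whose normalisation is not given in the sources used here, and it was used as an alternative.

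Groups and rat numbers came from the sample labels. The main scale was log2 of the background-corrected intensity minus the 75th percentile of the array, without spots marked as outliers. Near-identical arrays were averaged. A feature was tested if it was well above background on at least 5 of 10 arrays. All tested mRNA and lncRNA features were compared with limma 3.58.1 in R 4.3.3 (lmFit and eBayes, Benjamini-Hochberg adjustment), which was also tested on simulated data. The files do not pair features with genes, so names were taken from the probe names that the study lists for 40 transcripts.

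The named transcripts were the members, for each of them the 3 named features with the highest and the 3 with the lowest r of the within-group deviations, and those on the marker lists. Other named transcripts were chosen after their values were seen. The members, the lists and the averaging of arrays were chosen with earlier results of these data known. Alternatives were quantile normalisation, normexp background correction (offset 50, on median signals), the authors' values, separate or omitted near-identical arrays, the slide as a block, the median feature for scaling, other filters, the methods' t-test and each array left out. Sequences came from RefSeq. Precision is limited by the number of arrays.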

Additional observations from a re-analysis of the deposited data

How the results depend on the processing

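The differences of Adssl1 and Mtfp1 kept their direction under the 9 other settings (slide 2 alone repeats the estimate of the slide as a fixed block) and the 10 arrays left out in turn. With the 10 arrays left out, the Adssl1 difference lay between -4.74 and -3.56 and the Mtfp1 difference between -2.92 and -2.08. The correlation of their deviations lay between 0.84 and 0.95 with each array left out (exact permutation p from 0.00347 to 0.0486). It lay between 0.88 and 0.97 under 8 other settings (exact permutation p from 0.000556 to 0.0833). The lowest of these p came with 10 separate arrays, which counts the arrays of each near-identical pair as separate samples. The slide as a fixed block missed the threshold (r = 0.97, p = 0.0833), where 24 reorderings were left, and so did the set without both control rat 16 and LPS rat 5 (r = 0.80, p = 0.111).

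The number of features called by limma in either direction was 233 over 8 samples. It was 670 with 10 separate arrays, 97 without the near-identical pairs, 6 with the slide as a fixed block and 472 with the slide as a random block. The methods' t-test called 2186 without adjustment and 48 with it. A fit with 10 separate arrays and the slide as a fixed block, chosen after seeing the data, called 131. With each array left out the number lay between 105 and 311. It was 134 without LPS rat 5, 110 without LPS rat 6 and 105 without LPS rat 7. The cause was not tested. No paired analysis was possible because the groups share no rat numbers.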
